A study of Mus musculus with 4 samples.

Results

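The T-cell and NK-cell genes described here were 9 genes chosen by symbol: Cd3d, Cd3e, Cd3g, Cd4, Cd8a, Lck, Il7r, Nkg7 and Gzma. Of these, 8 were matched to 14 of the 45101 probe sets of an Affymetrix mouse genome array, among 18194 genes in all. Lck, the kinase that starts signalling from the T-cell receptor, had no matched probe set and is not analysed here. Each gene was represented by its probe set with the highest mean log2 signal over the 4 arrays. RNA came from epididymal fat, a visceral depot of male mice; the C57Bl/6J animals were 9 weeks old when feeding began and ate the diets for 21 weeks. All mice ate a high-fat diet with 60% of its energy as fat. The standard high-fat diet was low in calcium at 0.4%, and the whey protein diet held 1.8% calcium and whey protein isolate. The labels placed 2 arrays on the high-calcium diet (replicates 1 and 2) and 1 array on the standard high-fat diet. The title of the remaining array names no diet but echoes the series title, as does the source label of high-calcium replicate 2. That array entered no comparison between diets, and its value is given beside the others as that of the array of open diet. The labels speak of 2 profiled mice per diet, so each array is taken as 1 mouse. Calcium and whey protein were changed together, so their effects cannot be told apart.

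T cells recognise antigen through a receptor whose signalling chains form the CD3 complex, encoded in part by Cd3d, Cd3e and Cd3g. CD4 and CD8 are co-receptors that bind MHC class II and class I on the presenting cell and bring the kinase Lck to the receptor. The IL-7 receptor alpha chain, encoded by Il7r, carries survival signals for T cells, and it also pairs with the receptor for the cytokine TSLP. Natural killer cells and cytotoxic T cells carry granules with proteins such as granzyme A (Gzma) and NKG7. Fat of obese mice is known to hold T cells among its many immune cells.

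The tissue label was checked first: all 8 measured adipocyte genes were above background on all 4 arrays. Background was set at the median log2 signal of each array, which was -3.38 for high-calcium replicate 1 and lay between -4.09 and -3.99 for the other 3. Replicate 1 thus had the higher median, which touches every dim gene below. Of the 8 measured genes, 5 were above background on all 4 arrays (Cd3d, Cd8a, Il7r, Nkg7 and Gzma). Cd3e and Cd3g were above it on the 3 arrays with a labelled diet but not on the array of open diet. Cd4 was not above background on any array. By level above background alone, the name of the set thus rested on the CD3 chains, Cd8a, Il7r, Nkg7 and Gzma, and not on Cd4. Cd8a counts here through its brightest probe set, as none of its others was above background on all 4 arrays. Il7r, the brightest member, ran opposite to Cd3d over the arrays, as described below.

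**Figure D1:**
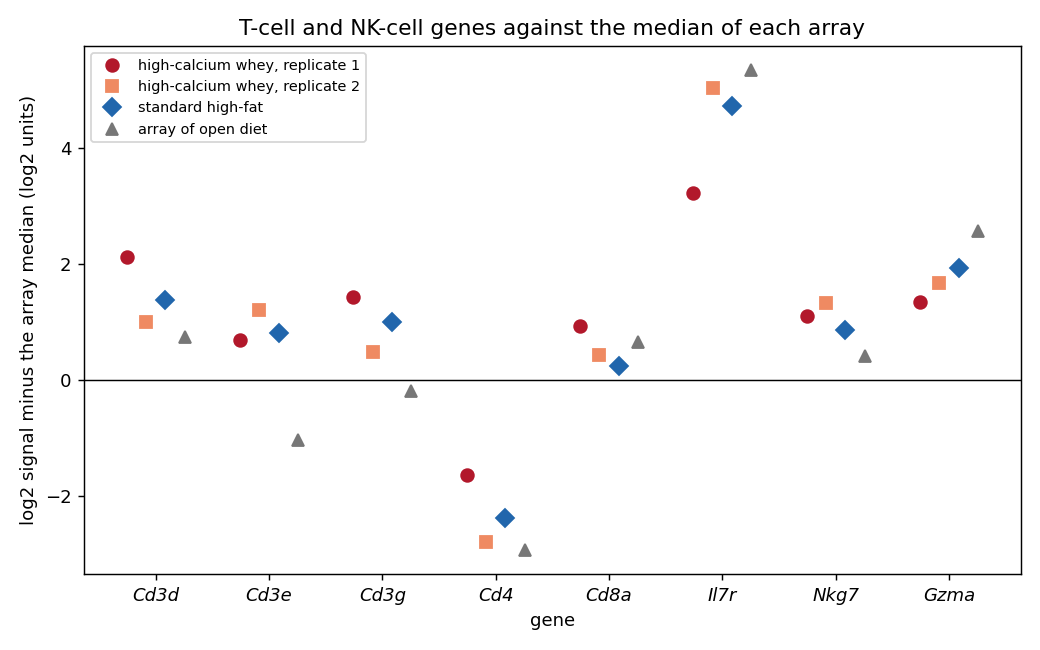
Log2 signal of each of the 8 measured genes minus the median of the same array (vertical axis, log2 units) on the 4 arrays, 1 point per array. Cd3d was 2.13 above the median on replicate 1 and 0.74 to 1.38 above it on the other 3 arrays, Il7r was 3.22 above it on replicate 1 and 4.72 to 5.35 on the others, and Cd4 lay under it on every array.

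Cd3d and Cd3g were high on high-calcium replicate 1 alone, whereas Cd3e was about equal on both high-calcium arrays. Cd3d, the CD3 delta chain, had log2 signals of -1.25 and -3.0 on high-calcium replicates 1 and 2, against -2.62 for the standard array and -3.35 for the array of open diet. Its high-calcium values lay on both sides of the standard array, and replicate 1 was 3.37-fold above replicate 2. Cd3g, the CD3 gamma chain, had values of -1.94, -3.51, -3.01 and -4.28 on these arrays in the same order. It followed the order of Cd3d on all 4 arrays, with replicate 1 at 2.96-fold the signal of replicate 2. Cd3e, the epsilon chain that pairs with both, had values of -2.69, -2.79, -3.19 and -5.13. Both high-calcium arrays were above the standard array for Cd3e, by 0.50 and 0.40 log2 units, and the array of open diet was 1.94 below it. The direction of Cd3e on replicate 1 depended on scaling: with each array centred on its median the difference from the standard array was -0.13 on replicate 1 and 0.40 on replicate 2, and after quantile normalization it was 0.099 and 0.41. Cd3d and Cd3g stayed above the standard array on replicate 1 under both scalings, at 0.75 and 0.45 after centring and 1.24 and 0.81 after quantile normalization. In bulk tissue, fewer cells of a type and less RNA per cell cannot be told apart.

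The 3 CD3 genes are neighbours, with Cd3g and Cd3d transcribed away from each other from starts 1355 bases apart. Their promoters are shown because Cd3d and Cd3g had the same order over the arrays while Cd3e did not. Each sequence runs 5′ to 3′ on the strand of its gene, from 250 bases before the start to 50 bases after it, from RefSeq on GRCm38.p6. Capitals mark matches on either strand to 4 textbook motifs, namely AGGAAG for ETS factors, TGTGGT for RUNX factors, CAGGTG as an E-box and TATAAA as a TATA box, and no matches overlapped.
Cd3d promoter, chr9:44981536-44981835, plus strand: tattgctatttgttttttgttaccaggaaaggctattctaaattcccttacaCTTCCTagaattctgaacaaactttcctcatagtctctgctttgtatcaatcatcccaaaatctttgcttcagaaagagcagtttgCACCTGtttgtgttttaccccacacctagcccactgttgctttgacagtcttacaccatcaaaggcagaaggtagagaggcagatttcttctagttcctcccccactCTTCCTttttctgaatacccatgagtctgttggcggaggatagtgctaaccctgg
Cd3g promoter, chr9:44980382-44980681, minus strand: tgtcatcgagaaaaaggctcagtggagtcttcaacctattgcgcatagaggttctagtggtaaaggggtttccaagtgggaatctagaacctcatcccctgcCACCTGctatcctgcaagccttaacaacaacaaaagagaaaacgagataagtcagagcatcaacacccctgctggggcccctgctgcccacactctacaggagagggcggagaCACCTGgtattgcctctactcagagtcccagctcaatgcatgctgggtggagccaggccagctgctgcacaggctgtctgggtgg
Cd3e promoter, chr9:45009562-45009861, minus strand: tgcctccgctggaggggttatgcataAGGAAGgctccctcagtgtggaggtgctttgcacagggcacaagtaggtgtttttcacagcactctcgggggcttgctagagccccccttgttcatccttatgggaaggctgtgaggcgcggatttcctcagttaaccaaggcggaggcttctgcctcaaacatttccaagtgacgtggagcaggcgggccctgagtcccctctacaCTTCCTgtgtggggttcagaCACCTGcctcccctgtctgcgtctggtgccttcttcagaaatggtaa
The Cd3d window held 2 ETS matches and 1 E-box match, the Cd3e window also held 2 and 1, and the Cd3g window held 2 E-box matches alone. None of the 3 windows held the RUNX or the TATA letters. Of 32851 promoter windows of the same length, 35.4% held the ETS letters, 20.2% the E-box letters, 16.8% the RUNX letters and 13.6% the TATA letters. The matches are a description of these windows.

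The co-receptor genes were at or near background. Cd4 had log2 signals of -5.02, -6.80, -6.39 and -7.04 on high-calcium replicates 1 and 2, the standard array and the array of open diet; values without array names below keep this order. Its other probe set was dimmer still, from -7.19 to -5.65. Both lay under the array median everywhere, so Cd4 was not above background as set here, and it is left out of the counts of direction and fold below. The median is a set line and not a detection call. Cd8a, the CD8 alpha chain, had 5 probe sets that disagreed. The brightest, which represents the gene here, had values of -2.44, -3.57, -3.76 and -3.45. By that probe set the high-calcium arrays were above the standard array by 1.32 and 0.20 log2 units. The ending of its name marks a probe set that can share sequence with other transcripts. A second probe set ran the other way, with differences of -0.39 and -0.82, and was under background on 2 of the 4 arrays. The remaining 3 were above background on at most 1 array, and all of them were higher on replicate 1 than on replicate 2, by 1.07 to 1.80 log2 units. The direction of Cd8a between the diets therefore depended on the probe set.

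**Figure D2:**
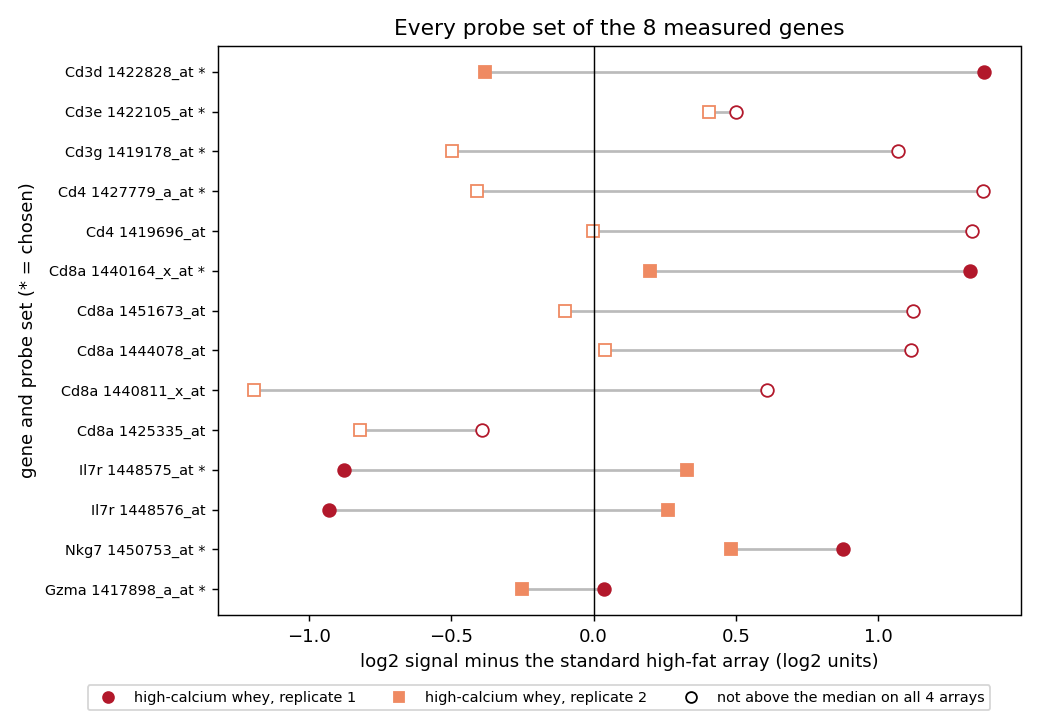
Log2 difference of each high-calcium array from the standard high-fat array (horizontal axis, log2 units) for the 14 probe sets of the 8 measured genes, with open symbols for probe sets not above the array median on all 4 arrays. The 2 probe sets of Il7r lie together, at -0.88 and 0.33 and at -0.93 and 0.26 on replicates 1 and 2, while the 5 of Cd8a spread on both sides of 0.

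Il7r ran opposite to Cd3d. Its log2 signals were -0.15, 1.05, 0.72 and 1.26. Replicate 1 was the low array, and the other 3 lay within 0.54 log2 units of each other. Replicate 2 had 2.30-fold the signal of replicate 1. The second probe set had values of -2.51, -1.32, -1.58 and -0.93 and the same order of arrays. Il7r stayed low on replicate 1 after quantile normalization (-0.91 from the standard array) and after centring (-1.5). Its promoter is shown as that of the member that ran against the CD3 genes, with the same motifs in capitals.
Il7r promoter, chr15:9529827-9530126, minus strand: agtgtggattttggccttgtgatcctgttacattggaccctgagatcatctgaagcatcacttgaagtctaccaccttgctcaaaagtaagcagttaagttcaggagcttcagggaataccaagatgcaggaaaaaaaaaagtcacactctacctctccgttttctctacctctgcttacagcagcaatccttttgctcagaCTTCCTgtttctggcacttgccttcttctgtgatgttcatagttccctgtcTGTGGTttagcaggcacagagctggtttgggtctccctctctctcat
This window held 1 ETS match before the start and 1 RUNX match just after it.

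Of 18 measured genes of the IL-7 and common gamma chain pathway, 7 were higher and 5 lower on both high-calcium arrays. Over all genes these shares were 38.6% and 23.9%. The median log2 difference of the 18 between the diets was 0.09, against 0.08 over all genes. Crlf2, which encodes the TSLP receptor chain that pairs with the IL-7 receptor alpha chain, was picked after its values were seen. It had log2 signals of 1.05, 2.08, 1.62 and 1.83. Like Il7r it was lowest on replicate 1. Il7, the ligand, had values of -1.83, -2.22, -1.44 and -1.87, with both high-calcium arrays below the standard one. Jak3, the kinase of the common gamma chain, had -2.95, -2.45, -3.37 and -2.84, and Bcl2, a survival factor, had -0.55, -1.26, -1.31 and -1.09. Tslp, the ligand of Crlf2 and likewise picked afterwards, had -3.31, -2.93, -2.72 and -3.56. The sum of signals over this list ranged from 9.15 to 10.6 on the linear scale across the 4 arrays.

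Of the granule genes, Nkg7 was higher on both high-calcium arrays and Gzma had 1 on either side of the standard array. Nkg7, a granule membrane protein of NK and cytotoxic T cells, had log2 signals of -2.27, -2.66, -3.15 and -3.68. Both high-calcium arrays were above the standard one, by 0.88 and 0.48 log2 units, and by 0.25 and 0.47 on centred arrays. Gzma had values of -2.04, -2.33, -2.08 and -1.52. Its range over the 4 arrays, 0.80 log2 units, was the narrowest of the 8 genes, and the array of open diet was the highest. Of 27 measured genes of the cytotoxic and NK-cell list, 9 were higher and 4 lower on both high-calcium arrays. Over all genes these shares were 38.6% and 23.9%. Among the 27, 8 were above background on all 4 arrays, with a median difference of -0.01 between the diets. Of these 8, 4 were higher on replicate 1 and lower on replicate 2, and 1 ran the other way. The other 3, higher on both, were Cd160, Klrg1 and Klrb1a. Cd160, a receptor of NK and cytotoxic T cells, had -2.22, -2.96, -3.85 and -3.45, with both high-calcium arrays above the standard array. Klrg1, an inhibitory receptor of NK and effector T cells, had -2.42, -2.78, -3.04 and -2.99. Klrb1a, of the NK receptor family, had -3.37, -3.38, -3.78 and -3.39, with the standard array lowest. Ncr1 and Prf1, which encode the NK receptor NKp46 and perforin and were also picked after their values were seen, were above background on 1 and 0 of the 4 arrays.

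Between the diets, 0 of the 8 measured genes passed limma at an adjusted p under 0.05, with 0.0% of all 18194 genes called, and 0 had an unadjusted p under 0.05 (4.94% of all genes). limma with a trend and robust estimation also called 0 of the 8, with 6 of all genes (0.033%) called. With 2 arrays against 1, the fit takes each gene's spread from the high-calcium arrays alone, moderated over all genes. An exact permutation test of 2 against 1 cannot go below p = 0.333. Nkg7 had a log2 difference of 0.68 (SE 0.39) with a 95% interval from -0.76 to 2.12, Cd3e one of 0.45 (SE 0.32) from -0.74 to 1.65, and Cd8a one of 0.76 (SE 0.71) from -1.86 to 3.38. These 3 genes were higher on both high-calcium arrays, as were 38.6% of all genes, and 0 of the 7 genes other than Cd4 were lower on both (23.9%). Cd3d differed by 0.50 (SE 1.03), Cd3g by 0.29 (SE 0.94), Il7r by -0.27 (SE 0.75) and Gzma by -0.11 (SE 0.36). Each of these 4 had a high-calcium array on either side of the standard array. Of the 7, 3 were higher on replicate 1 and lower on replicate 2 (24.7% of all genes), and 1, Il7r, ran the other way (12.8%). None of the 7 was at least 1.5-fold higher (12.7%) or lower (4.49%) on both. All adjusted p from limma were 0.9999. The median difference over the 7 genes was 0.45, against 0.08 over all genes; it was 0.88 for replicate 1 and 0.20 for replicate 2. With Cd4 these were 0.47, 0.97 and -0.03, so the sign for replicate 2 rests on whether Cd4 is counted.

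The gap between the high-calcium arrays was larger than the difference between the diets for Cd3d, Cd3g, Cd8a, Il7r and Gzma. For all of these but Cd8a, that follows from having a high-calcium array on either side of the standard array. Of the 7 genes other than Cd4, 3 were at least 1.5-fold higher on replicate 1 than on replicate 2 (Cd3d, Cd3g and Cd8a), against 32.0% of all genes, and 1, Il7r, was at least 1.5-fold lower, against 10.5%. With each array centred on its median, the gap of Cd8a fell from 1.12 to 0.51 log2 units, which is under 1.5-fold. Of the 7, 5 had their highest signal on replicate 1, against 47.6% of all genes. Among genes above background on all 4 arrays, the shares at least 1.5-fold higher and lower on replicate 1 were 13.3% and 5.40%; of the 5 members so measured, 2 were higher (Cd3d and Cd8a) and 1 lower (Il7r). The median log2 signal of 10 pan-leukocyte genes, which mark white blood cells in general, was 1.37, 1.5, 1.32 and 1.39 over the arrays. Relative to that median, Cd3d was 1.88 log2 units higher on replicate 1 than on replicate 2, Cd3g 1.69 higher and Il7r lower by 1.07 (-1.07). The pan-leukocyte genes themselves did not run 1 way. Of the 10, 4 were higher on replicate 1 than on replicate 2, against 63.7% of all genes. Cd52 had 4.50, 2.56, 2.94 and 2.67. Cd53 and Laptm5 were lower on replicate 1 than on replicate 2 by 0.79 and 0.83 (-0.79 and -0.83).

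The array of open diet was low for the CD3 genes. Cd3d, Cd3e, Cd3g and Nkg7 had their lowest signal there, 4 of the 7 genes other than Cd4, against 30.0% of all genes. Cd3e and Cd3g were 1.94 and 1.27 log2 units under the standard array. Gzma and Il7r had their highest signal there instead. Since its diet is not labelled, these values were assigned to neither group.

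Other T-cell, NK-cell and cytokine receptor genes, taken from 5 lists of textbook members, were described beside the 8. Of 108 listed symbols 94 were measured, and 39 were above background on all 4 arrays. limma called 0 of the 94 at an adjusted p under 0.05, and 4 had an unadjusted p under 0.05, against 4.94% of all genes. Of the 94, 30 were higher on both high-calcium arrays and 12 lower on both, against 38.6% and 23.9% of all genes. A further 41, or 43.6%, were higher on replicate 1 and lower on replicate 2, as were 24.7% of all genes, and 11 ran the other way, against 12.8%. Median differences from the standard array were 0.60 for replicate 1 and -0.12 for replicate 2, against 0.19 and 0.01 over all genes. Over the 39 genes above background these medians were 0.25 and -0.07, against 0.06 and 0.01 over all 10463 genes above background.

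**Figure D3:**
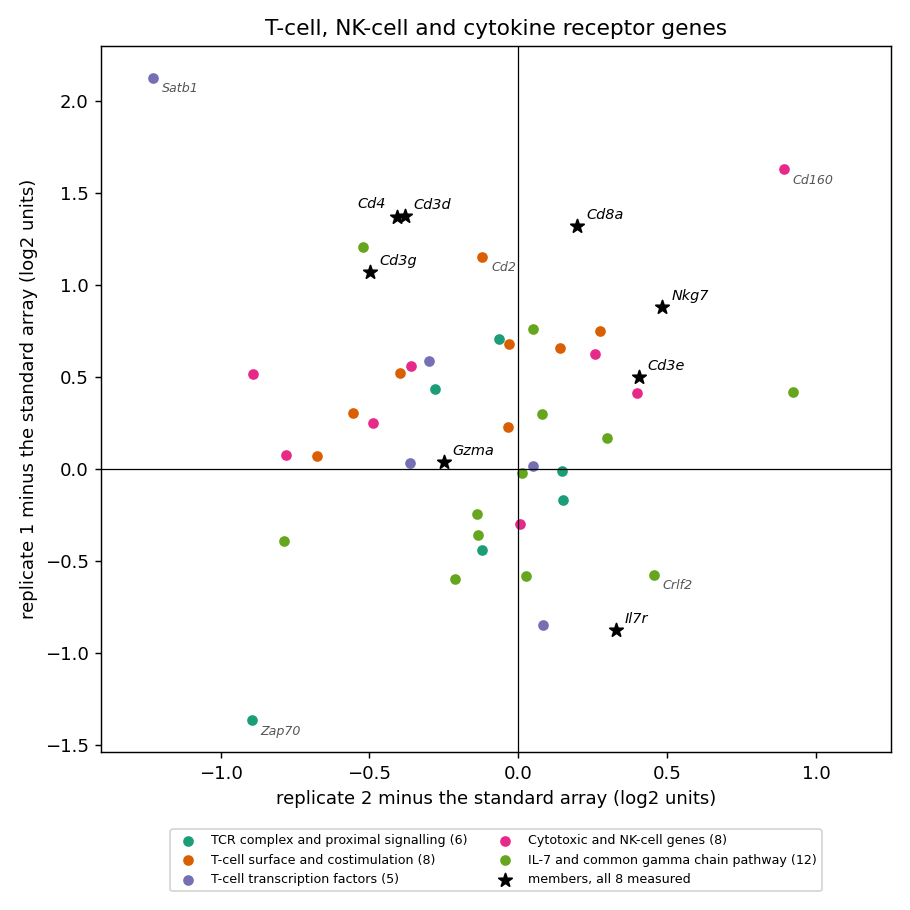
Log2 difference from the standard array on replicate 2 (horizontal) and replicate 1 (vertical), in log2 units, for the 39 listed genes above background on all 4 arrays (circles, coloured by list) and the 8 measured members (stars). Cd3d, Cd3g and Cd4 lie at upper left, Cd3e, Cd8a and Nkg7 at upper right and Il7r at lower right.

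Among genes of the T-cell receptor complex and its signalling, 3 of 16 measured were higher and 2 lower on both high-calcium arrays. Over all genes these shares were 38.6% and 23.9%. Zap70, the kinase that binds phosphorylated CD3 chains, had -3.06, -2.60, -1.70 and -2.89. The standard array was the highest for Zap70, which differed by -1.13 (SE 0.41) between the diets with an adjusted p of 0.9999 from limma. Lat, an adaptor downstream of it, had -2.17, -2.95, -2.88 and -3.34, and Fyb, another adaptor, had -0.55, -0.23, -0.11 and -0.088. Cd247, the CD3 zeta chain, was picked after its values were seen as the partner of the members. It had -3.08, -4.00, -3.44 and -4.50, the order of arrays seen for Cd3d, and was above background on 2 of them.

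Of 20 measured surface and costimulation genes, 17 were higher on replicate 1 than on replicate 2, against 63.7% of all genes. On both arrays 6 of the 20 were higher and 1 lower than on the standard array, against 38.6% and 23.9% of all genes. Cd2, an adhesion molecule of T and NK cells, had -1.92, -3.20, -3.07 and -3.08, high on replicate 1 alone. Thy1 had -0.63, -1.15, -1.29 and -1.4, and Tnfrsf4, which encodes the costimulatory receptor OX40, had -2.14, -2.61, -2.89 and -3.21. Of 13 T-cell transcription factors, 5 were higher on both high-calcium arrays and 7 on replicate 1 only, against 38.6% and 24.7% of all genes. Only 5 of the 13 were above background on all 4 arrays, and their median differences from the standard array were 0.03 on replicate 1 and -0.30 on replicate 2. Satb1, a chromatin organiser of T cells, had -0.32, -3.67, -2.44 and -3.39, a 10.2-fold gap between the high-calcium arrays. Zbtb7b, which encodes the CD4-lineage factor ThPOK, ran against it with -2.12, -1.19, -1.27 and -1.46. Id2 lay between 0.69 and 1.09 on all arrays. Foxp3, the factor of regulatory T cells, picked after its values were seen, was under background on all 4 arrays. Genes of the MHC side that the co-receptors bind differed little, with a median difference of -0.06 over 8 genes. Of these, 4 were lower on both high-calcium arrays, against 23.9% of all genes. H2-Aa, a class II chain, had 3.98, 4.21, 4.48 and 4.34, and the class I gene H2-K1 had 3.79, 4.26, 4.26 and 4.25.

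Markers of other cell types moved with the gap between the high-calcium arrays. Median differences of the B-cell genes from the standard array were 1.60 for replicate 1 and -0.46 for replicate 2. Of the 14, 13 were highest on replicate 1, against 47.6% of all genes. Cd79b, a chain of the B-cell receptor, had -0.30, -3.0, -2.56 and -3.27. The summed linear B-cell signal was 6.55, 4.82, 4.67 and 5.57. Blnk, the brightest gene of the list, was lowest on replicate 1, with log2 signals of 1.02, 1.92, 1.75 and 2.24. Only 4 of the 14 genes were above background on all 4 arrays, and their medians were 0.85 for replicate 1 and -0.09 for replicate 2. Smooth muscle genes were higher on replicate 1 than on replicate 2 for 9 of 9, against 63.7% of all genes. Their sums were 68.0, 9.01, 10.3 and 7.31. The defining gene Myh11 had 2.12, -2.98, -2.08 and -2.72, above background on all 4 arrays. For lymph node stroma, 8 of 10 genes were measured, their median differences were 0.84 and 0.16, and sums lay between 1.24 and 1.85. Over the 4 of them above background on all 4 arrays, the medians were 0.05 and -0.16. Cxcl13 of this list had -1.36, -3.42, -1.25 and -1.57, lowest on replicate 2. Il33 had -1.25, -1.43, -1.16 and -1.64, and Bst1 had -2.77, -2.43, -2.97 and -2.80. The vessel genes of this list, Glycam1 and Madcam1, picked after their values were seen, were above background on 0 and 1 of the 4 arrays. Macrophage genes ran the other way, as Il7r did. Of 11, 10 were lower on replicate 1 than on the standard array, against 6665 of all 18194 genes. Their median there was -0.81, and their sum was 37.1, 60.0, 56.7 and 60.2. Mast-cell genes were lower on replicate 1 too, with medians of -1.75 and -0.25. Adipocyte genes had medians of 0.14 and 0.08. The part of these cell types in the values of Cd3d, Cd3g and Il7r was not tested.

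**Figure D4:**
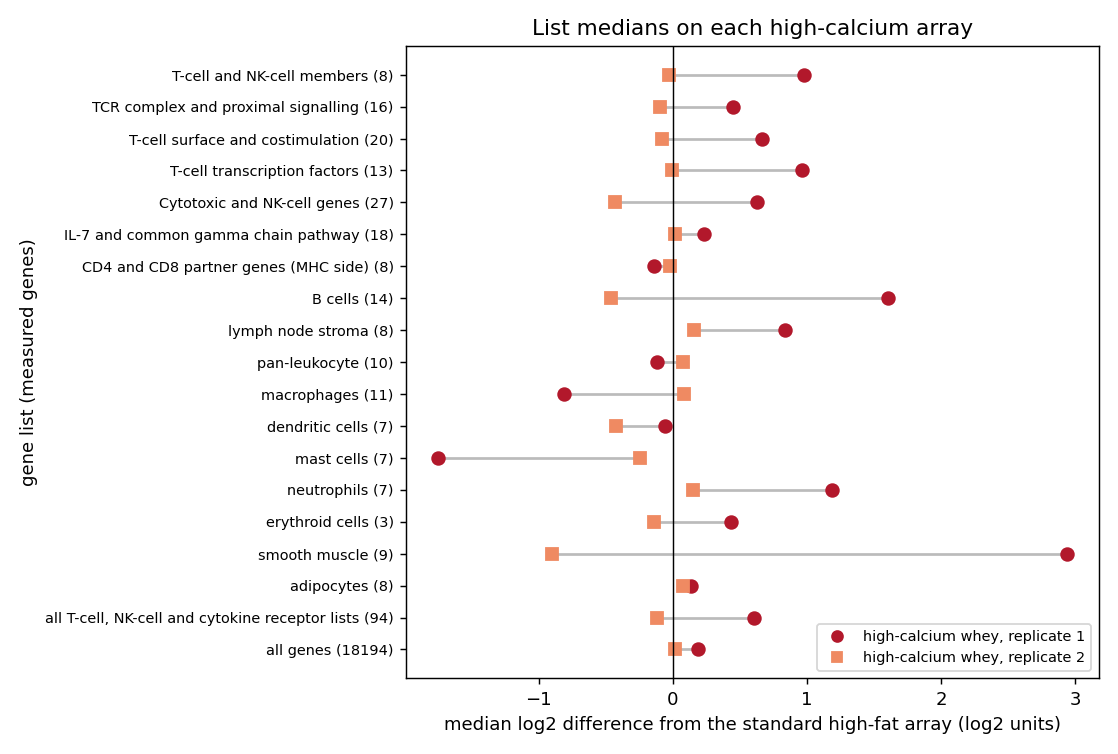
Median log2 difference from the standard array (horizontal axis, log2 units) on replicate 1 (circles) and replicate 2 (squares) for each gene list, with the number of measured genes in parentheses. The 8 T-cell and NK-cell genes, Cd4 included, stand at 0.97 and -0.03 (0.88 and 0.20 without Cd4), beside B cells at 1.60 and -0.46 and macrophages at -0.81 and 0.09.

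Genes with the most similar pattern were named over the 4 arrays by distance between centred log2 profiles, among 10361 genes above background that are in none of the lists. The median profile of the 5 members above background stood 0.62 above its mean on replicate 1 and -0.31 from it on replicate 2. The nearest genes were 2310015A10Rik (0.047 log2 units), Shroom2 (0.048), Cadps (0.058), Ippk (0.060), Fmod (0.060), Cep78 (0.068), Atxn2l (0.071) and AI504432 (0.073). Because Cd3d and Il7r ran opposite, each was also used alone, a choice made after the values were seen. The genes nearest to Cd3d were Ppp1r12b (0.15), Ctxn1 (0.17), Bpifb1 (0.21) and Ecrg4 (0.23), then Casq1 (0.23), Ramp1 (0.27), Mal2 (0.28) and Tpm1 (0.28). Those nearest to Il7r were Frmd4b (0.056), Aspn (0.11), Lrp12 (0.14) and Shtn1 (0.15), then Tm6sf1 (0.15), Fabp7 (0.16), Mmp19 (0.16) and Lipa (0.16). With 4 arrays, such a distance describes these libraries and nothing more.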

How the data were processed

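Arrays carried biotin-labelled RNA from 4 fat samples. The deposited values are linear intensities, 1 per probe set; the submitters' processing notes name RMA without a version. The lowest value of each array equalled its median divided by 100, so these are not RMA's log2 values, and the scaling is not stated in the labels. The number of arrays limits the precision.

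Values were log2 transformed with no constant. The platform annotation gave 34958 of 45101 probe sets 1 symbol, 932 several and 9211 none; 0 symbols changed through current gene records. Each gene's difference was fitted over all genes (R 4.3.3; limma 3.58.1, lmFit and eBayes; two-sided; Benjamini-Hochberg adjustment; 1 residual degree of freedom, 2.38 with moderation). The procedure was run on simulated data with the same noise for every gene and array. That run therefore says nothing about genes of unequal spread. Members and lists were chosen with earlier results of these data known. Named genes were the members, up to 3 genes per list by size of difference among those above background, and the 8 nearest patterns; genes picked otherwise are marked. Alternatives were other probe set choices, dropping dim genes, centred or quantile-normalized arrays, a constant of 0.1, trend and robust estimation, a threshold of 0.10, and each high-calcium array left out. Python 3.11.15 and matplotlib 3.10.9 drew the figures.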

Additional observations from a re-analysis of the deposited data

Results flagged for a closer look

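The array of open diet is used in no comparison, and 3 measured T-cell and NK-cell genes were above background and above the standard array there. Cd8a had a log2 signal of -3.45 against -3.76 on the standard array, a gap of 0.32. Il7r had 1.26 against 0.72, a gap of 0.54. Gzma had -1.52 against -2.08, a gap of 0.55. Each is 1 array against 1, with no test.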

How the results depend on the processing

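limma called 0 of the measured T-cell and NK-cell genes under the 9 alternatives that allow a test. Of the related genes it called 1 with each array centred on its median (0.528% of all genes were called there) and 0 under the other 8. That gene, Klre1, picked after its value was seen, differed by 4.02, with a log2 signal of -7.98 on the standard array, and was above background on 2 of 4 arrays. In that fit the 8 measured members all had the same SE, 1.06. The call therefore does not rest on a spread particular to each gene. Centring moved the median difference of all genes from 0.08 to -0.24, that of the related genes from 0.18 to -0.14, and Cd3g from 0.29 to -0.030. Cd8a turned to -0.61 when probe sets ending in _x_at and the like were dropped, as another probe set then stands for the gene. Leaving out 1 high-calcium array in turn gave -0.38 to 1.37 for Cd3d, -0.50 to 1.07 for Cd3g, -0.41 to 1.37 for Cd4 (under background throughout), -0.88 to 0.33 for Il7r and -0.25 to 0.037 for Gzma. With 1 array against 1 these have no test. The median over the members was -0.11 after the filter on dim genes, which left 3 of them, and 0.15 to 0.47 under the other settings with both high-calcium arrays. Without Cd4, an alternative chosen after seeing the data, it was 0.45. Other causes of these turns were not tested. No paired analysis was possible because the standard array is alone in its group and its title carries no replicate number.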
